A study of Sus scrofa with 10 samples.

Results

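Solute carrier genes of pig liver are described here, chosen as the identifiers of the expression table that a name table pairs with a symbol starting with SLC and a digit, or with SLCO, and whose mean was at least 1 RPKM (read density scaled to gene length and library size) over 10 libraries. Of 25009 genes in all, 293 carried such a symbol, and 145 of these met the minimum. They belong to 42 numbered families. RNA was sequenced from the livers of male pigs, all labelled with age 175 and no unit, and 5 libraries were labelled high and 5 low for growth and fatness. No treatment or genotype is named in the labels for either group, and breed and separate animals are not stated. The tissue was collected at slaughter, and the groups are compared to ask which transcripts differ between livers of pigs that diverge in growth and fatness. Because only part of the identifiers have a symbol, 18 of 55 well-known carriers looked for by name, among them SLC2A1, SLC16A1, SLC7A5, SLC27A5, SLCO1B3 and SLC39A14, were not analysed here.

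Solute carriers are membrane proteins that move small molecules along or against a gradient by facilitated diffusion, exchange or coupling to sodium or protons, without hydrolysing ATP themselves. Hepatocytes use them at the blood-facing membrane to take up bile acids, drugs, amino acids, sugars and fatty acids, in the mitochondrial membrane to exchange nucleotides and metabolites, and in the membranes of the endoplasmic reticulum, Golgi and lysosome. ATP-driven exporters of the ABC family then carry bile acids and conjugates into bile.

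The summed RPKM ran from 539327 to 567220 per library, with 16195 to 16802 genes above 0. The values are given as RPKM and mostly to 2 decimals, so the sequencing depth is unknown and no counting interval is given. All 145 members were above 0 in every library, and their sum was 3185 to 3846 RPKM per library. Of 16 carriers that define other tissues (kidney, gut, brain, muscle, red cells), 14 had an identifier matched by name and none met the minimum. The highest of them was SLC5A1, the sodium-glucose cotransporter of gut and kidney, at a mean of 0.568 RPKM. The kidney urate carrier SLC22A12 was listed at 0 in every library. The carriers SLC10A1, SLC2A2 and SLC38A4, known from hepatocytes, had means above 100 RPKM. The summed level of 8 genes listed for the nervous system was 6.06 RPKM in high replicate 1, 7.11 in high replicate 5 and at most 0.46 elsewhere. Of these sums GFAP held 3.66 and 4.22 RPKM, and CGA, which encodes a hormone chain, held 0.40 and 0.58. The members with the smallest p are therefore also given without this pair of libraries where their p then lay above 0.05. In bulk tissue, fewer cells of a type and less RNA per cell cannot be told apart.

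The levels of the members spanned from 1.20 to 252 RPKM, with 11 members at 100 RPKM or more, 47 from 10 to under 100 and 87 under 10. Their median was 6.998 RPKM, and that of all 10931 genes above the same minimum was 6.10. The 12 members with the highest means held 50.3% of the summed level. In descending order they were SLC38A4 (252 RPKM), SLC5A6 (224), SLC37A4 (173), SLC10A1 (163), SLC25A4 (151), SLC25A47 (147), SLC25A3 (134), SLC38A3 (116), SLC2A2 (116), SLC27A2 (105), SLC25A15 (101) and SLC22A7 (82.5). Neighbours in this order overlapped in their ranges over the libraries. By role, the 27 mitochondrial carriers held 29.8% of the summed level, the 20 members of amino acid families 18.7%, the 12 of sugar families 15.5% and the 14 of bile acid and organic ion families 11.6%. Just inside the minimum lay SLC41A3 (1.20 RPKM), SLC36A4 (1.20), SLC25A14 (1.20) and SLC22A17 (1.25), and just outside it SLC16A10 (0.984), SLC35C1 (0.977), SLC37A1 (0.956) and SLC4A7 (0.893).

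**Figure D1:**
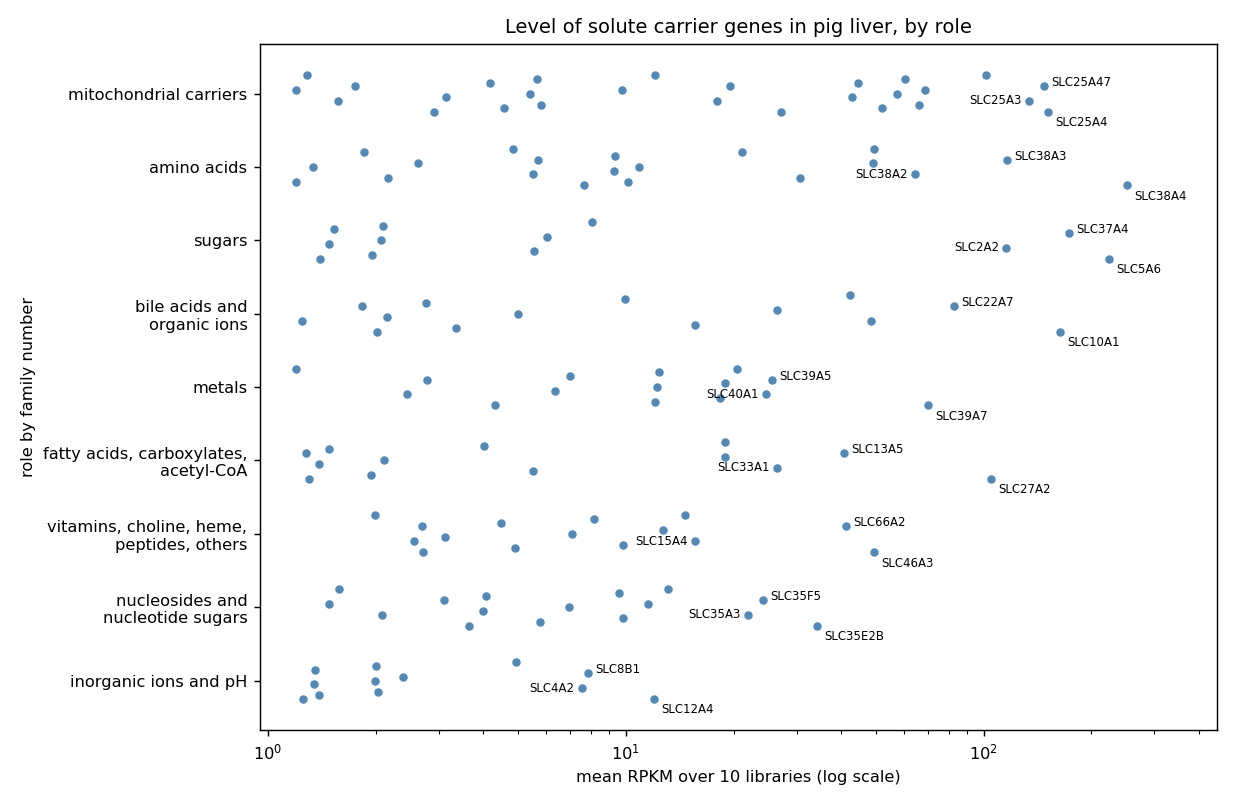
Mean RPKM over the 10 libraries (horizontal, log scale) of the carriers among the members in 9 roles (vertical, by family number), 1 point per gene, with the highest of each role named (up to 3) and points spread vertically for legibility. The mitochondrial, amino acid, sugar, bile acid and fatty acid families each reach over 100 RPKM, while no member of the inorganic ion families lies above 11.96 RPKM.

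No member differed between high and low past the threshold. Differences are of mean log2(RPKM + 1), on which low genes appear less changed than they are, and since the labels do not say that the samples are separate animals, the p-values measure only the spread between these samples. In limma 0 of 145 members had an adjusted p under 0.05 (adjusted over all 10931 tested genes, of which 0.0% passed), and the smallest adjusted p among the members was 0.962. At an unadjusted p under 0.05 there were 9 members, 6.21%, where 4.55% of all tested genes had one. Of these 9, 6 had the higher mean in high, beside 2.27% of all tested genes, and 3 in low, beside 2.28%. The 6 were SLC35A3, SLC7A2, SLC33A1, SLC39A8, SLC35E1 and SLC41A2, and the 3 were SLC50A1, SLC22A7 and SLC13A5. In all, 80 members (55.2%) had the higher mean log2(RPKM + 1) in high, beside 48.8% of the tested genes, and 65 had it in low, beside 51.2%. Single libraries moved these counts. Without low replicate 5, 70 members (48.3%) had the higher mean in high, beside 39.7% of the tested genes, and without low replicate 2, 17 members (11.7%) had an unadjusted p under 0.05, beside 7.49%. The median difference was 0.04 (log2, high minus low), beside -0.0049 over all tested genes. Only SLC50A1 had groups that did not overlap, 1 of 145, beside 0.805% of all tested genes. All its low values lay above the high ones, as for 0.494% of all tested genes, and no member had all high values above the low ones, beside 0.311%. Without low replicate 5 the groups of 5 members (3.45%) did not overlap, beside 1.97% of the tested genes. The 95% interval of the difference lay within 1 log2 unit of 0 for 122 members and reached that far for 23, so that a log2 difference of 1 lies within the interval of these genes.

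**Figure D2:**
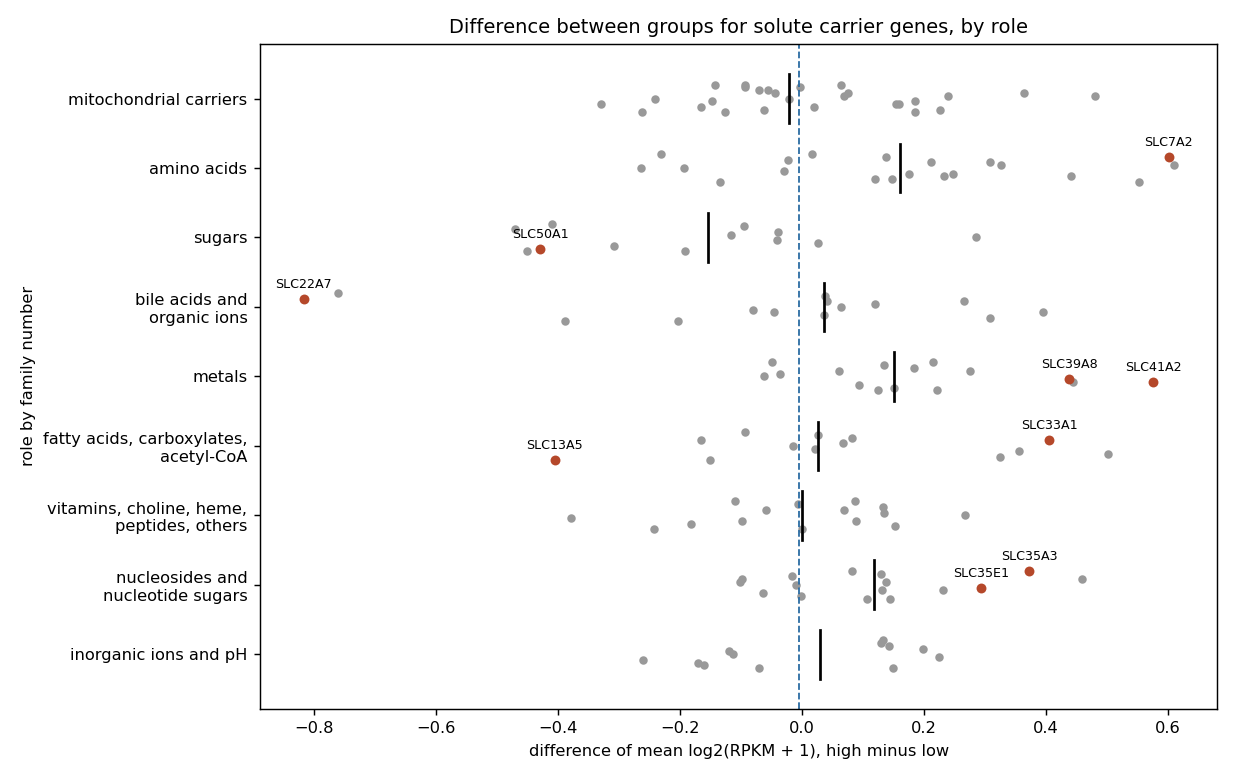
Difference of mean log2(RPKM + 1), high minus low (horizontal), for the carriers among the members in 9 roles (vertical), 1 point per gene; named points in red had an unadjusted limma p under 0.05, black bars are role medians and the dashed line is the median of all tested genes. Sugar families lie mostly left of the line (10 of 12 below 0) and metal families mostly right (12 of 15 above 0), and no point passed the adjusted threshold.

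Low had the higher mean for 10 of 12 members of the sugar families, with a median difference of -0.15, and none passed. The median was -0.25 without low replicate 5, and the count was 8 of 12 without low replicate 2 and 7 of 12 with array quality weights. The member with the smallest p of all 145 was SLC50A1 (ENSSSCG00000006529), the only mammalian member of the SWEET family of sugar carriers, which had 5.90, 6.2, 7.31, 6.75 and 7.35 RPKM in high replicates 1 to 5 and 9.08, 10.3, 8.50, 8.15 and 10.9 RPKM in low replicates 1 to 5. Every low library lay above every high library, the closest being 7.35 RPKM in high replicate 5 and 8.15 in low replicate 4. Its means were 6.70 ± 0.649 RPKM in the high libraries and 9.39 ± 1.19 RPKM in the low ones (SD, n = 5 each, as for all means here), a log2 difference of -0.43 (SE 0.11, 95% interval -0.67 to -0.19), with an unadjusted p of 0.00236 and an adjusted p of 0.962 in limma. This gene was singled out with that difference already known, so its p is a description. The difference kept its sign and ran from -0.48 to -0.38 over 18 alternative settings. Marker levels of T and NK cells were 1.79 ± 0.269 in the high libraries and 2.21 ± 0.405 in the low ones (mean log2(RPKM + 1) of 8 matched genes, summed RPKM 18.8 to 34.5 and 25.5 to 54.8, none at 0 throughout). Those of Kupffer cells and macrophages were 4.87 ± 0.24 and 5.14 ± 0.152 (4 of 8 matched, summed RPKM 205 to 263 and 210.2 to 378, none at 0). Both means were higher in low, as that of SLC50A1 was. So were those of cholangiocytes, stellate cells and fibroblasts, and red blood cells, and not those of the other lists. In low replicate 5, the highest library for SLC50A1, the T and NK level was 1.93, within the high range of 1.49 to 2.11. The Kupffer cell and macrophage level there was 4.895, within the high range of 4.58 to 5.22. Elsewhere in low these levels were 1.69 to 2.60 and 5.13 to 5.30. The part of these cell types in the difference of SLC50A1 was not tested.

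The abundant members of the sugar families overlapped between the groups. SLC2A2, the glucose carrier GLUT2 through which glucose enters and leaves hepatocytes, had 111 ± 15.0 RPKM in the high libraries and 121 ± 48.5 RPKM in the low ones, with the lowest value, 57.8 RPKM, in low replicate 4 and the highest, 194, in low replicate 2. SLC37A4, which brings glucose-6-phosphate into the endoplasmic reticulum for the last step of glucose production, had 165 ± 18.1 RPKM in the high libraries and 182 ± 45.01 RPKM in the low ones. For this pair the log2 differences were -0.04 (SE 0.26, 95% interval -0.61 to 0.53) and -0.12 (SE 0.18, 95% interval -0.51 to 0.28). SLC5A6 belongs to the sodium-glucose family by number and carries biotin and pantothenate, and had 221 ± 25.6 RPKM in the high libraries and 228 ± 36.5 RPKM in the low ones. Of the 12 most abundant members it had the lowest coefficient of variation (SD over mean), 13.3% over the 10 libraries. The RefSeq annotation of another build places SLC5A6 over ATRAID. Since strand was not marked by the library kit, reads of both genes could mix, and ATRAID was at a mean of 24.0 RPKM. The low-level members SLC5A4, SLC5A9 and SLC45A2 had means of 1.53, 1.40 and 2.10 RPKM and coefficients of variation of 76.4%, 70.3% and 56.1%, with SLC5A4 highest in low replicate 2 (4.44 RPKM).

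In the amino acid families 14 of 20 members had the higher mean in high, with a median difference of 0.16, and none passed; without low replicate 4 the count was 10 of 20 and the median 0.03. SLC7A2 (ENSSSCG00000006987), the carrier CAT2 for arginine, lysine and ornithine, had 64.2, 51.4, 58.4, 51.3 and 69.2 RPKM in high replicates 1 to 5 and 43.1, 56.3, 43.8, 25.0 and 30.5 RPKM in low replicates 1 to 5. The 5 high libraries lay at 51.3 RPKM or more, as did low replicate 2, and the other 4 low libraries lay below, so the groups overlapped. The means were 58.9 ± 7.88 RPKM in the high libraries and 39.7 ± 12.3 RPKM in the low ones, a log2 difference of 0.60 (SE 0.20, 95% interval 0.15 to 1.049) with an unadjusted p of 0.013 and an adjusted p of 0.962 in limma. Without high replicates 1 and 5 the difference was 0.48 (unadjusted p = 0.084 in limma). The largest difference of the role was that of SLC6A20, a proline carrier, with 6.76 ± 2.78 RPKM in the high libraries and 4.22 ± 2.11 RPKM in the low ones and a log2 difference of 0.61 (SE 0.30, 95% interval -0.04 to 1.26). Its high replicate 1 (11.6 RPKM) stood apart, and without that library the difference was 0.42 (unadjusted p = 0.162 in limma).

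The most abundant member of all, SLC38A4, a sodium-coupled carrier of neutral amino acids in hepatocytes, had 265 ± 63.5 RPKM in the high libraries and 239.6 ± 31.5 RPKM in the low ones, with 355 RPKM in high replicate 5 as its highest value. SLC38A3, a glutamine carrier, had 113 ± 56.7 RPKM in the high libraries and 119.5 ± 26.8 RPKM in the low ones and spanned 53.7 to 195 RPKM. SLC38A2, known for its induction when amino acids are scarce, had 65.8 ± 12.3 RPKM in the high libraries and 63.0 ± 25.0 RPKM in the low ones and was lowest in low replicate 4 (32.1 RPKM). Differences of the 3 genes were 0.12, -0.19 and 0.14 on the log2 scale, each smaller than its SE times 2.

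Some amino acid carriers work as a pair of chains. SLC3A2 is the heavy chain that brings light chains such as SLC7A7 and SLC7A8 to the membrane, and had 23.0 ± 7.04 RPKM in the high libraries and 19.3 ± 3.42 RPKM in the low ones. SLC7A7, the light chain that exports cationic amino acids, had 8.37 ± 1.52 RPKM in the high libraries and 10.19 ± 1.38 RPKM in the low ones with an unadjusted p of 0.0792 in limma, and its higher mean was in low where that of the heavy chain was in high. SLC7A7 overlaps OXA1L in the RefSeq annotation of another build, and OXA1L had a mean of 30.2 RPKM. SLC3A1, the other heavy chain, was far lower, with 0.28, 1.14, 0.18, 2.39 and 2.56 RPKM in high replicates 1 to 5 and 1.72, 0.34, 1.26, 1.83 and 1.66 RPKM in low replicates 1 to 5. Its 3 lowest values, all 0.34 RPKM or less, lay in low replicate 2 and high replicates 1 and 3. The glutamate carrier SLC1A2 had 11.1 ± 4.28 RPKM in the high libraries and 10.6 ± 9.52 RPKM in the low ones. Its relative SLC1A1 had 11.2 ± 4.67 RPKM in the high libraries and 7.47 ± 4.25 RPKM in the low ones, and the glutamine and neutral amino acid carrier SLC1A5 had 5.27 ± 0.892 RPKM in the high libraries and 4.38 ± 1.31 RPKM in the low ones. SLC1A2 reached 27.0 RPKM in low replicate 2 and was at 2.78 in low replicate 4. SLC38A1, another glutamine carrier, spanned 2.44 to 15.7 RPKM between the same 2 libraries. The creatine carrier SLC6A8 had 6.55 ± 1.25 RPKM in the high libraries and 4.78 ± 2.20 RPKM in the low ones (unadjusted p = 0.0825 in limma). SLC38A9, a lysosomal carrier that reports arginine to mTORC1, and SLC38A6 were among the steadiest members, with coefficients of variation of 9.60% and 9.99%. SLC36A4 had 1.03 ± 0.27 RPKM in the high libraries and 1.37 ± 0.198 RPKM in the low ones.

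Bile acid and organic ion carriers showed the widest spread between libraries of any role, with a median coefficient of variation of 39.3% over 14 members, where all members had 27.7% and all tested genes 22.3%. The role held 8 members with the higher mean in high and 6 in low, with a median difference of 0.04, and none passed. Both without high replicate 2 and without low replicate 5 the split was 5 and 9, with medians of -0.11 and -0.10. SLC22A7 (ENSSSCG00000027796), the organic anion carrier OAT2 of the blood-facing membrane, had 30.9, 87.0, 36.4, 71.9 and 84.1 RPKM in high replicates 1 to 5 and 86.1, 107, 141, 100.4 and 80.4 RPKM in low replicates 1 to 5. High replicates 1 and 3 lay far below every other library, while the other 3 high values lay among or just below the low ones. With 62.1 ± 26.6 RPKM in the high libraries and 103 ± 23.6 RPKM in the low ones, the log2 difference was -0.82 (SE 0.30, 95% interval -1.48 to -0.16), the largest of all members, with an unadjusted p of 0.0196 and an adjusted p of 0.962 in limma. Without high replicate 3 it was -0.66 (unadjusted p = 0.0501 in limma), and without low replicate 3 it was -0.70 (unadjusted p = 0.051 in limma).

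SLC10A1, the sodium-linked bile acid carrier NTCP, had 68.1, 211, 52.1, 184 and 251 RPKM in high replicates 1 to 5 and 161, 114, 159.7, 227 and 203 RPKM in low replicates 1 to 5. Here too high replicates 1 and 3 were lowest, followed by low replicate 2, and the groups overlapped, with 153 ± 88.6 RPKM in the high libraries and 173 ± 43.6 RPKM in the low ones and a log2 difference of -0.39 (SE 0.42, 95% interval -1.31 to 0.54). SLCO2B1, an organic anion carrier that does not need sodium, had 42.8 ± 19.6 RPKM in the high libraries and 41.9 ± 15.8 RPKM in the low ones. SLCO1A2, of the same family, had 14.2 ± 4.59 RPKM in the high libraries and 16.9 ± 6.70 RPKM in the low ones. SLC17A1, a carrier of phosphate and urate, had 7.39, 42.2, 2.67, 32.9 and 22.3 RPKM in high replicates 1 to 5 and 22.5, 10.1, 21.3, 66.3 and 36.2 RPKM in low replicates 1 to 5, a span of 24.8-fold between high replicate 3 and low replicate 4. Its log2 difference was -0.76 (SE 0.68, 95% interval -2.24 to 0.72).

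The remaining organic ion carriers were low. SLC51B, the beta chain of the OST bile acid exporter, had 1.77 ± 0.637 RPKM in the high libraries and 1.89 ± 0.529 RPKM in the low ones, whereas SLC51A, its alpha chain, did not meet the minimum and had a mean of 0.107 RPKM with at most 0.27. SLCO2A1, a prostaglandin carrier, had the highest coefficient of variation of all members, 89.0%, with 6.71 RPKM in high replicate 1 and 0.57 in both high replicate 4 and low replicate 4. SLC22A17 had 1.28 ± 0.333 RPKM in the high libraries and 1.21 ± 0.224 RPKM in the low ones.

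**Figure D3:**
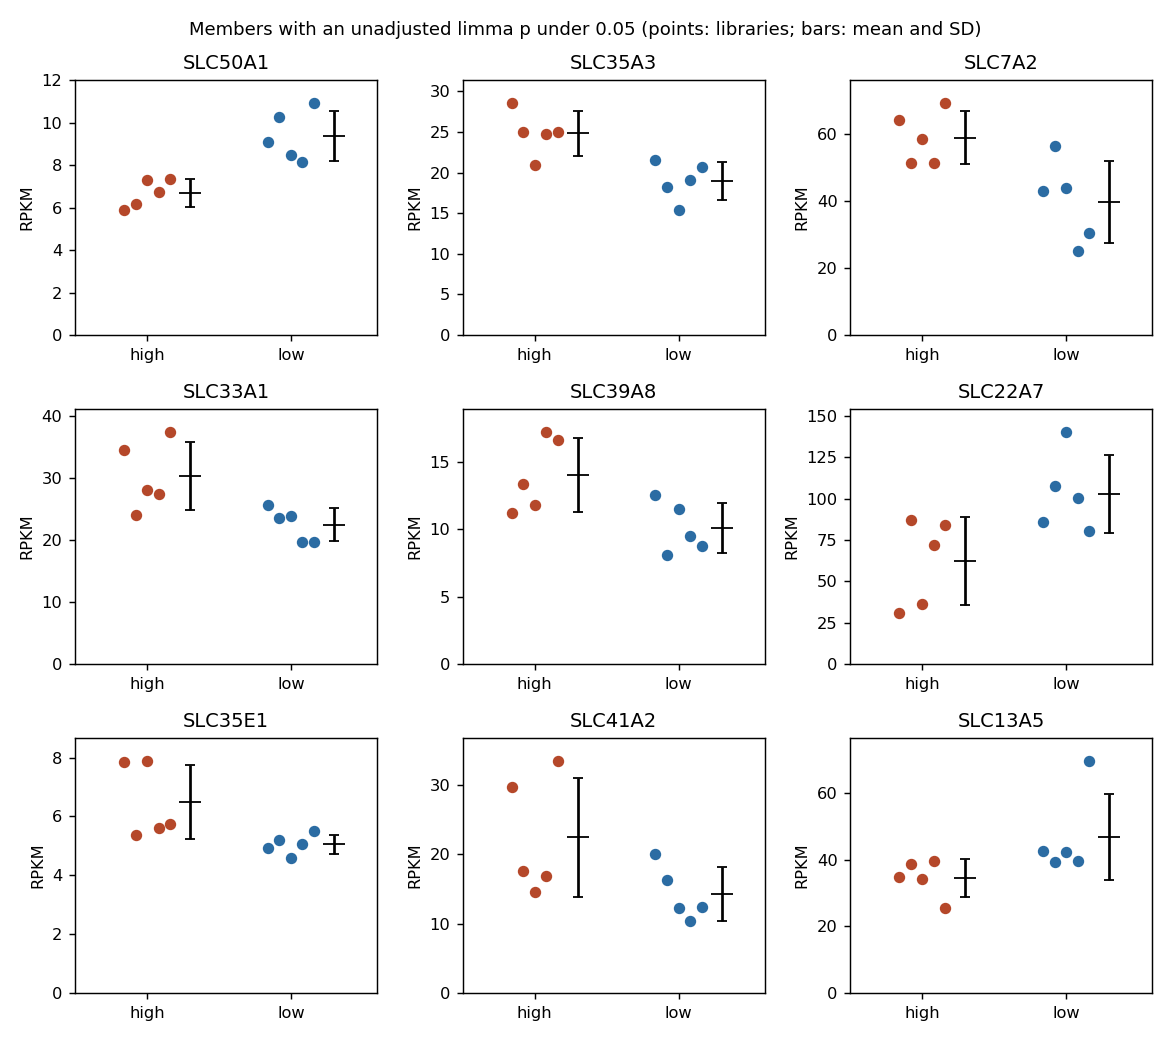
RPKM (vertical, from 0) of the 9 members with an unadjusted limma p under 0.05, in the 5 high and 5 low libraries (horizontal, 1 point each), with the mean and SD of each group beside the points. Groups are apart only for SLC50A1, while high replicates 1 and 3 lie low for SLC22A7, high replicates 1 and 5 lie high for SLC41A2 and low replicate 5 lies high for SLC13A5.

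Mitochondrial carriers, the largest role, were divided between the groups, with 12 of 27 higher in high and 15 in low and a median difference of -0.02, and none had an unadjusted p under 0.05 in limma. The count was 16 of 27 and the median 0.04 without low replicate 4. Their summed level was also close, 1055 ± 76.7 RPKM in high and 1041 ± 48.4 in low. SLC25A4, an ADP/ATP exchanger, had 138 ± 48.7 RPKM in the high libraries and 164 ± 57.0 RPKM in the low ones, and its paralog SLC25A5 had 71.0 ± 14.3 RPKM in the high libraries and 61.0 ± 17.6 RPKM in the low ones. The 2 paralogs are close in sequence and reads could be split between them. Their extremes lay in opposite libraries, since high replicates 1 and 3 and low replicate 2 were the 3 lowest for SLC25A4 (104, 71.9 and 78.4 RPKM) and the 3 highest for SLC25A5 (87.4, 84.4 and 84.3). SLC25A3, the phosphate carrier that supplies ATP synthase, had 137 ± 22.9 RPKM in the high libraries and 130.1 ± 17.3 RPKM in the low ones.

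Carriers of the urea cycle and of fuel use followed. SLC25A15, which exchanges ornithine and citrulline in the urea cycle, had 172, 141, 96.5, 125 and 60.4 RPKM in high replicates 1 to 5 and 60.8, 104, 79.4, 55.0 and 119 RPKM in low replicates 1 to 5. High replicates 1, 2 and 4 were the 3 highest and high replicate 5 was among the 3 lowest, and the difference of 0.48 (SE 0.30, 95% interval -0.17 to 1.13) had an unadjusted p of 0.131 in limma. SLC25A13, which exports aspartate for the same cycle, had 29.5 ± 11.5 RPKM in the high libraries and 24.6 ± 2.26 RPKM in the low ones. SLC25A20, which takes acylcarnitines in for fatty acid oxidation, had 61.3 ± 10.6 RPKM in the high libraries and 52.9 ± 13.4 RPKM in the low ones, and SLC25A1, which exports citrate for fatty acid synthesis, had 49.2 ± 15.8 RPKM in the high libraries and 54.5 ± 22.6 RPKM in the low ones. SLC25A47, a carrier known chiefly from liver, had 149 ± 69.3 RPKM in the high libraries and 145 ± 24.5 RPKM in the low ones and was lowest in high replicate 5 (59.4 RPKM) and highest in high replicate 3 (228 RPKM). The peroxisomal carrier SLC25A17 varied little, 47.4 to 69.3 RPKM, and SLC25A16 had the lowest coefficient of variation of all members, 7.49%. SLC25A14 was near the minimum with 1.10 ± 0.48 RPKM in the high libraries and 1.30 ± 0.472 RPKM in the low ones.

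For metal carriers 12 of 15 had the higher mean in high, with a median difference of 0.15, and none passed. Under the 2 other scalings of the libraries the count stayed 12, and over all 18 alternatives the median ranged from 0.06 (without high replicates 1 and 5) to 0.26 (without low replicate 2). The count was 11 of 15 without high replicate 5, without low replicate 1 and without low replicate 4. It was 14 of 15 without high replicate 1 and also without high replicate 3. SLC39A8 (ENSSSCG00000009169), the ZIP8 importer of manganese and zinc, had 11.2, 13.3, 11.8, 17.2 and 16.6 RPKM in high replicates 1 to 5 and 12.6, 8.11, 11.5, 9.49 and 8.75 RPKM in low replicates 1 to 5. The highest low value, 12.6 RPKM in low replicate 1, lay above high replicates 1 and 3. With 14.1 ± 2.74 RPKM in the high libraries and 10.1 ± 1.88 RPKM in the low ones the log2 difference was 0.44 (SE 0.16, 95% interval 0.09 to 0.78), the unadjusted p 0.0169 and the adjusted p 0.962 in limma. SLC41A2 (ENSSSCG00000000838), a magnesium carrier, had 29.8, 17.6, 14.5, 16.8 and 33.5 RPKM in high replicates 1 to 5 and 20.1, 16.3, 12.3, 10.4 and 12.4 RPKM in low replicates 1 to 5. Only high replicates 1 and 5 lay above 20.1 RPKM, and these are the libraries with the highest sums of the nervous system list. Its log2 difference was 0.58 (SE 0.25, 95% interval 0.03 to 1.122) with an unadjusted p of 0.0407 in limma, and without both libraries it was 0.21 (unadjusted p = 0.333 in limma). The part of the transcripts of that list was not tested.

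Other metal carriers overlapped between the groups. SLC39A7, the ZIP7 carrier that releases zinc from the endoplasmic reticulum and Golgi, had 74.8 ± 12.6 RPKM in the high libraries and 65.2 ± 5.25 RPKM in the low ones, with its 2 highest values, 91.8 and 82.3 RPKM, in high replicates 1 and 3. SLC39A5, a zinc importer, had 25.3 ± 7.01 RPKM in the high libraries and 25.9 ± 4.18 RPKM in the low ones. Ferroportin, SLC40A1, the iron exporter of macrophages and hepatocytes, had 25.5 ± 10.4 RPKM in the high libraries and 23.9 ± 7.30 RPKM in the low ones, with its 2 highest values, 43.1 and 36.1 RPKM, in high replicate 5 and low replicate 2 against 25.2 or less elsewhere. SLC41A3 had 1.16 ± 0.391 RPKM in the high libraries and 1.23 ± 0.333 RPKM in the low ones.

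Carriers of fatty acids, carboxylates and acetyl-CoA had a higher mean in high for 8 of 13 members, a median difference of 0.03, and none passed. Their count was 6 of 13 without high replicate 4 and without low replicate 2, 3 or 5, with a median of -0.02 without the last. SLC33A1 (ENSSSCG00000025316), which carries acetyl-CoA into the endoplasmic reticulum, had 34.5, 24.0, 28.1, 27.4 and 37.5 RPKM in high replicates 1 to 5 and 25.7, 23.5, 23.8, 19.7 and 19.6 RPKM in low replicates 1 to 5. Low replicate 1 lay above high replicate 2, and the other low values lay below all the high ones. Means were 30.3 ± 5.52 RPKM in the high libraries and 22.5 ± 2.71 RPKM in the low ones, the log2 difference 0.41 (SE 0.14, 95% interval 0.09 to 0.72) and the unadjusted p 0.015 in limma. Its 2 highest libraries were again high replicates 1 and 5, and without them the difference was 0.23 (unadjusted p = 0.128 in limma). SLC13A5 (ENSSSCG00000017888), the sodium-linked importer of citrate, had 34.9, 38.7, 34.4, 39.7 and 25.4 RPKM in high replicates 1 to 5 and 42.8, 39.4, 42.3, 39.7 and 69.8 RPKM in low replicates 1 to 5. Low replicate 5 stood far above the rest and without it the log2 difference was -0.25 (unadjusted p = 0.0999 in limma), where all libraries gave -0.40 (SE 0.18, 95% interval -0.80 to -0.01) with an unadjusted p of 0.0462 in limma. It was -0.30 (unadjusted p = 0.116 in limma) without high replicate 5 and -0.28 (unadjusted p = 0.204 in limma) without high replicates 1 and 5, and the p was under 0.05 in 9 of 18 alternatives.

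In the RefSeq annotation of another build SLC13A5 overlaps FBXO39, and without strand the reads of overlapping genes cannot be told apart. FBXO39, an F-box gene, had 5.13, 4.92, 4.31, 3.84 and 6.24 RPKM in high replicates 1 to 5 and 9.81, 7.03, 8.14, 10.7 and 17.1 RPKM in low replicates 1 to 5. Both genes had their highest value in low replicate 5, and every low value of FBXO39 lay above every high one. FBXO39 was chosen after its values were seen. SLC27A2, which takes up fatty acids and activates very long chains, had 117 ± 33.1 RPKM in the high libraries and 92.1 ± 21.0 RPKM in the low ones and a log2 difference of 0.32 (SE 0.23, 95% interval -0.17 to 0.82). High replicates 2, 4 and 5 were its 3 highest libraries (145, 125 and 149.8 RPKM), while high replicates 1 and 3 lay within the range of the low libraries. SLC16A6, of the monocarboxylate family, had 4.71 ± 2.38 RPKM in the high libraries and 3.35 ± 2.85 RPKM in the low ones and peaked in high replicate 2 and low replicate 2 (8.69 and 8.21 RPKM). SLC16A6 overlaps ARSG in the same annotation. ARSG had 27.3 RPKM in high replicate 2, its highest library, and 18.07 in low replicate 2.

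Nucleotide sugars supply the Golgi with building blocks of glycans. In the families of nucleoside and nucleotide sugar carriers 10 of 16 members had the higher mean in high, with a median difference of 0.12, and none passed. Roles follow the family number, and what each member carries was not examined. Without low replicate 5 the count was 9 of 16 and the median 0.02, and the median was 0.04 without high replicate 3 and also without low replicate 4. SLC35A3 (ENSSSCG00000006871), which imports UDP-N-acetylglucosamine into the Golgi, had 28.6, 25.0, 20.9, 24.8 and 25.0 RPKM in high replicates 1 to 5 and 21.5, 18.2, 15.4, 19.0 and 20.7 RPKM in low replicates 1 to 5. High replicate 3 lay below low replicate 1 and every other high value lay above all the low ones. Its means were 24.8 ± 2.73 RPKM in the high libraries and 19.0 ± 2.37 RPKM in the low ones, with a log2 difference of 0.37 (SE 0.12, 95% interval 0.11 to 0.64), an unadjusted p of 0.0102 and an adjusted p of 0.962 in limma. Without high replicates 1 and 5 it was 0.30 (unadjusted p = 0.0654 in limma). SLC35E1 (ENSSSCG00000013861) had 6.49 ± 1.27 RPKM in the high libraries and 5.05 ± 0.332 RPKM in the low ones, a log2 difference of 0.29 (SE 0.12, 95% interval 0.02 to 0.56) and an unadjusted p of 0.036 in limma. Its high replicates 1 and 3 (7.86 and 7.89 RPKM) lay above the rest, which were between 4.59 and 5.73. The difference was 0.23 (unadjusted p = 0.093 in limma) without high replicate 1, 0.23 (unadjusted p = 0.0941 in limma) without high replicate 3 and 0.25 (unadjusted p = 0.105 in limma) without high replicates 1 and 5, and the p was under 0.05 in 11 of 18 alternatives.

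Others of this role were SLC35F5 with 26.2 ± 2.52 and 22.2 ± 2.55 RPKM in high and low, SLC35E3 with 2.56 ± 0.997 and 1.62 ± 0.88 RPKM and SLC35E2B with 35.4 ± 7.64 and 33.0 ± 11.5 RPKM. SLC35F5 had an unadjusted p of 0.0659 and SLC35E3 of 0.0895 in limma. The nucleoside carrier SLC29A1 (ENT1) had 13.7 ± 4.13 RPKM in the high libraries and 12.7 ± 4.26 RPKM in the low ones. SLC35A5 was steady, with a coefficient of variation of 10.4%.

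Carriers of vitamins, choline, heme, peptides and others had a higher mean in high for 7 of 15 members and a median difference of 0.00 (log2, to 2 decimals), and none had an unadjusted p under 0.05 in limma. The count was 10 of 15 and the median 0.06 without low replicate 2, and without low replicate 5 the median was -0.08. SLC46A3, a lysosomal carrier, had 42.6 ± 14.3 RPKM in the high libraries and 56.0 ± 19.6 RPKM in the low ones and a log2 difference of -0.38 (SE 0.29, 95% interval -1.005 to 0.25). SLC66A2, of the PQ-loop family, had 65.5, 18.6, 81.7, 22.5 and 15.3 RPKM in high replicates 1 to 5 and 29.5, 102, 29.9, 17.8 and 30.6 RPKM in low replicates 1 to 5. Its 3 highest libraries, high replicates 1 and 3 and low replicate 2, were all at 65.5 RPKM or more and no other was above 30.6. SLC15A4, a lysosomal peptide and histidine carrier, had 16.1 ± 2.52 RPKM in the high libraries and 15.1 ± 2.22 RPKM in the low ones, and SLC15A3, of the same kind, had 2.63 ± 0.442 RPKM in the high libraries and 2.49 ± 0.684 RPKM in the low ones. The choline carrier SLC44A1 had 7.74 ± 0.921 RPKM in the high libraries and 6.38 ± 1.64 RPKM in the low ones. For the ascorbate carrier SLC23A2 the means were 2.71 ± 0.539 RPKM in the high libraries and 2.73 ± 0.548 RPKM in the low ones and for the thiamine carrier SLC19A2 2.87 ± 1.01 RPKM in the high libraries and 2.52 ± 0.971 RPKM in the low ones. SLC18B1, a vesicular polyamine carrier, had 3.25 ± 0.331 RPKM in the high libraries and 3.01 ± 0.482 RPKM in the low ones.

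Inorganic ion and pH carriers were the least abundant role, and 6 of 12 had the higher mean in high, with a median difference of 0.03. The median was -0.08 without low replicate 5, where 5 of 12 were higher in high. SLC12A9 had 1.74 ± 0.152 RPKM in the high libraries and 2.32 ± 0.541 RPKM in the low ones, with an unadjusted p of 0.0619 in limma. The potassium-chloride cotransporter SLC12A4 had 12.5 ± 3.54 RPKM in the high libraries and 11.4 ± 4.07 RPKM in the low ones, the mitochondrial sodium-calcium exchanger SLC8B1 7.53 ± 1.65 and 8.13 ± 1.001 RPKM, the anion exchanger SLC4A2 6.92 ± 0.597 and 8.12 ± 2.02 RPKM and the sodium bicarbonate cotransporter SLC4A4 5.17 ± 0.82 and 4.69 ± 1.08 RPKM. SLC4A1AP, which meets the symbol rule, encodes an adaptor protein and no carrier, and had 7.5 ± 2.04 RPKM in the high libraries and 6.77 ± 2.26 RPKM in the low ones.

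The members also varied along an axis that crossed the groups. High replicates 1 and 3 and low replicate 2 were the 3 lowest libraries for 24 of 145 members (16.6%), beside 7.76% of all tested genes, and the 3 highest for 19 members (13.1%), beside 12.3%. No other set of 3 libraries was the lowest for more than 12 members or the highest for more than 8. The 12 (8.28%, beside 6.01% of all tested genes) were lowest in high replicate 2 and low replicates 4 and 5. The 8 (5.52%, beside 1.06%) were highest in high replicates 2, 4 and 5. On the first principal component of all tested genes (42.9% of the variance) high replicates 1 and 3 and low replicate 2 had neighbouring scores. These were -28.6, -37.2 and -32.6, and low replicate 4 had the opposite extreme, 40.5. These sets were read off the same values and carry no test. Among the 24 lowest there were 5 of the 14 bile acid and organic ion carriers (among them SLC10A1, SLC17A1, SLCO2B1 and SLCO1A2) and 6 mitochondrial carriers (among them SLC25A1, SLC25A4, SLC25A27, SLC25A40 and SLC25A43). The 19 highest included the amino acid members SLC1A1, SLC1A2, SLC3A2, SLC38A1 and SLC43A2, the zinc carriers SLC30A7, SLC39A6 and SLC39A13, and SLC66A2. Other members of these roles lay on the opposite side. The amino acid members SLC38A4, SLC3A1 and SLC7A7 and the zinc carrier SLC39A5 were among the 24 lowest. The organic ion member SLC22A23 and the mitochondrial carrier SLC25A5 were among the 19 highest. Summed over its 14 members the bile acid and organic ion role had 163 RPKM in high replicate 3, 196 in high replicate 1 and 309 in low replicate 2, and between 433 and 579.9 in the other 7. The hepatocyte marker level (mean log2(RPKM + 1) of the 6 matched of 8 genes, none at 0) was 10.97 in high replicate 3, 11.4 in high replicate 1 and 10.7 in low replicate 2, within or below the range of 10.98 to 11.6 in the other 7, and its part in these sums was not tested.

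**Figure D4:**
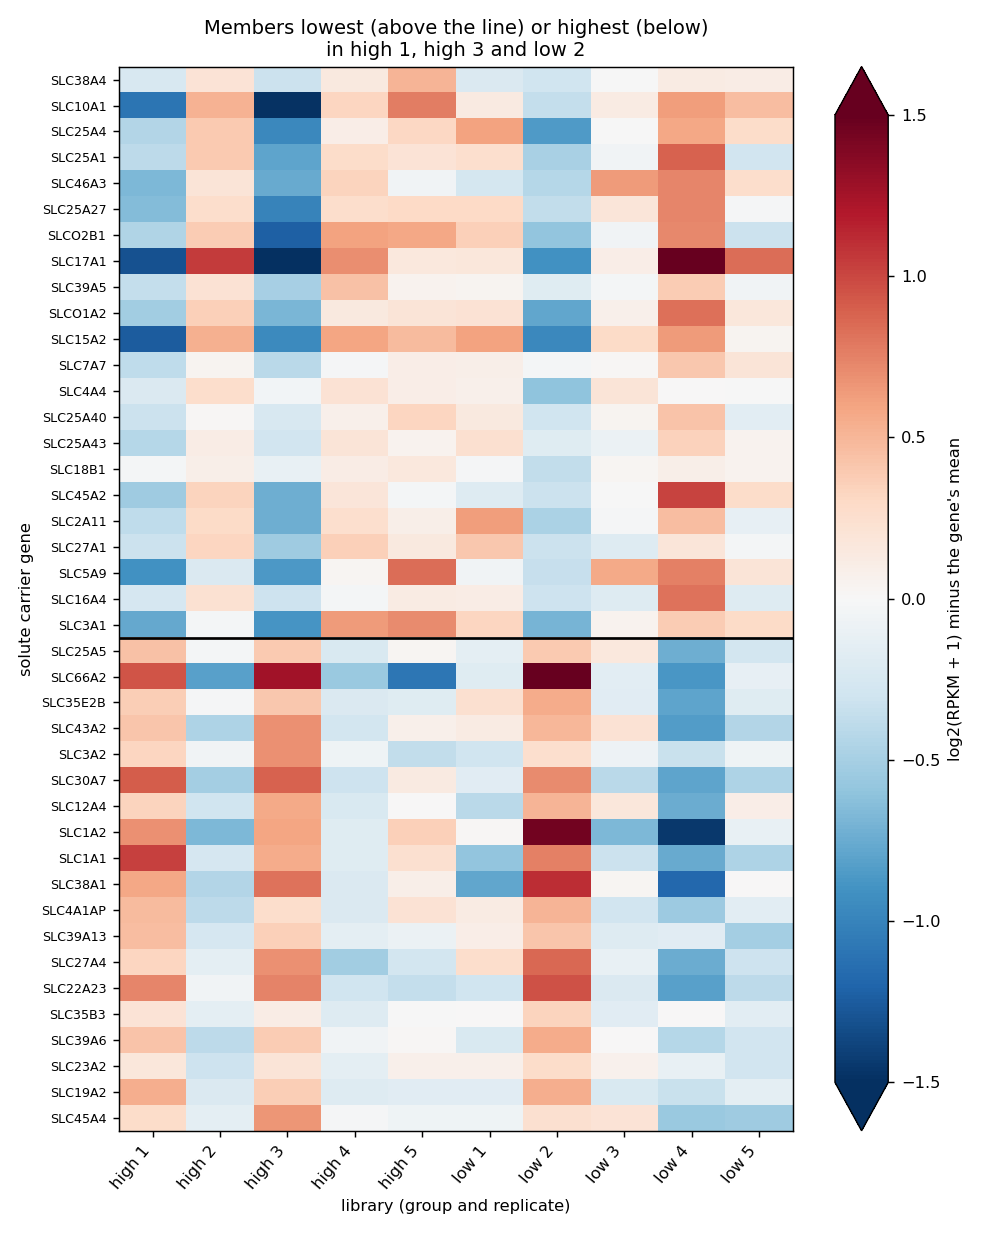
Log2(RPKM + 1) minus the gene's mean over 10 libraries (colour, clipped at 1.5 in either direction) for 22 of the 24 members with their 3 lowest values in high 1, high 3 and low 2 (above the line) and the 19 with their 3 highest there (below), by library (horizontal). The rows were chosen by these values and carry no test.

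Transport genes outside the solute carrier symbols were compared in the same fit. Of 14 listed ABC exporters 9 had a matched identifier and 8 were tested. Of these, 5 had the higher mean in high and 3 in low, beside 48.8% and 51.2% of all tested genes. None had an unadjusted p under 0.05 in limma, beside 4.55% of all tested genes. ABCB11, the bile salt exporter into bile, had 11.9, 33.8, 4.30, 30.1 and 43.4 RPKM in high replicates 1 to 5 and 36.6, 10.0, 25.4, 40.5 and 17.3 RPKM in low replicates 1 to 5. It was lowest in high replicate 3, low replicate 2 and high replicate 1, the libraries in which SLC10A1 was lowest. ABCC2, which exports conjugates into bile, had 32.5 ± 15.8 RPKM in the high libraries and 27.9 ± 5.66 RPKM in the low ones, ABCD3, a peroxisomal fatty acid carrier, 102 ± 33.8 and 81.1 ± 25.2 RPKM, and the sterol exporter subunit ABCG8 20.3 ± 5.92 and 18.5 ± 4.83 RPKM. Of 24 listed partners of carriers 14 were tested, 4 with the higher mean in high and 10 in low, beside 48.8% and 51.2% of all tested genes. In limma 1 of the 14 had an unadjusted p under 0.05, beside 4.55% of all tested genes. That gene was TFRC, the transferrin receptor for iron uptake, with 7.17, 10.1, 5.57, 12.7 and 7.52 RPKM in high replicates 1 to 5 and 26.6, 4.67, 20.7, 43.5 and 41.5 RPKM in low replicates 1 to 5. Low replicates 4 and 5 had the highest values, low replicate 2 was the lowest library of all, and the log2 difference was -1.31 (SE 0.49, 95% interval -2.38 to -0.23) with an unadjusted p of 0.0213 and an adjusted p of 0.962 in limma. ATP8B1, a phospholipid flippase of the bile canaliculus, had 9.24 ± 0.901 RPKM in the high libraries and 8.05 ± 1.55 RPKM in the low ones. PDZK1, a scaffold that binds carriers at the membrane, spanned 7.80 to 55.5 RPKM and had the same 3 lowest libraries as ABCB11. It was named after its values were seen.

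None of 9 cell type lists differed between the groups at a p under 0.05 in exact two-sided permutation tests of its level over 252 assignments. The smallest p was 0.0635 for Kupffer cells and macrophages, followed by 0.0873 for T and NK cells (adjusted p = 0.393 for each by the permutation test). It was 0.318 for the nervous system, 0.405 for red blood cells, 0.516 for hepatocytes, 0.698 for endothelial cells, 0.77 for cholangiocytes, 0.865 for stellate cells and fibroblasts and 0.881 for muscle, all from the same exact permutation test.

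The authors' deposited table gave a p under 0.05 to 11 members, 7.59% of the members, beside 5.0% of all tested genes. Of these 11, limma gave 6 an unadjusted p under 0.05 too. The authors' deposited table gave SLC50A1 a fold of 1.40 with a p of 0.00793, SLC7A2 a fold of -1.47 with a p of 0.01 and SLC22A7 a fold of 1.68 with a p of 0.02. Smaller deposited p-values than that of SLC50A1 went to SLC35F5 (fold -1.18, p of 0.00449) and SLC33A1 (fold -1.34, p of 0.00779). For SLC35F5 the unadjusted p in limma was 0.0659. Of the 144 members with a fold other than 1 in the authors' deposited table, 135 had a positive sign where low had the higher mean log2(RPKM + 1) or a negative one where high did. The same held for 96.15% of all tested genes with such a fold.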

How the data were processed

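Pig liver RNA was sequenced in 10 libraries as paired-end reads with a TruSeq v2 kit, per the labels' protocols, a kit that does not mark strand. The authors deposited RPKM values per gene. The genome build was Sscrofa 10.2, per the submitters' processing notes, and no aligner, counter or annotation is named in the sources used here. Besides, the authors' deposited table holds a signed fold change (a score with no value between -1 and 1) and a p-value for each gene from a test that is not named. In 624 deposited RPKM values of 92 genes a dot marked digit groups and was removed. The sequencing depth is unknown, so precision is given by the spread between libraries.

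A name table gave symbols to 11779 of 25009 identifiers. The 10931 genes averaging 1 RPKM or more were transformed to log2(RPKM + 1) and compared, high minus low, with limma 3.58.1 (trended variance, R 4.3.3), adjusting p-values over all tested genes by Benjamini-Hochberg at a threshold of 0.05. No covariate was used and all 10 libraries were fitted. Marker lists were compared by exact permutation in SciPy 1.17.1, adjusted over the 9 lists. Tested on simulated data of the high and low comparison (10931 genes, 5 runs, 200 changed genes each), the fit called 40% of genes changed 1.5-fold, 75.2% at 2-fold, 90.8% at 3-fold and 94.4% at 4-fold. The simulated noise was drawn independently for each gene, whereas the real libraries shared an axis of variation. The folds were set on log2(RPKM + 1), on which a low gene needs a larger fold in RPKM. These shares therefore need not hold for the real data. Overlapping genes were read from RefSeq on another build, Sscrofa11.1, in which 141 members were found and 36 overlapped another protein-coding gene, and no coordinates are given. Sequences were not used here.

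Genes named individually were the 10 members with the smallest p in each direction, the 12 with the highest mean, the 10 most and 6 least variable, the 3 most abundant of each role, members whose groups did not overlap, well-known liver carriers, the 4 genes on each side of the minimum, and 4 genes of each partner list. Some genes that this rule names are not reported here. The members and lists were chosen with earlier results of these data known. Alternatives were another pseudocount (0.1), no minimum or a minimum of 5 RPKM, other library scalings, no variance trend, library weights and leaving out libraries.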

Additional observations from a re-analysis of the deposited data

Results flagged for a closer look

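Single libraries that stood apart within their group of 5 were looked for among 148 groups of values of the named members, by the gap to the nearest library as a share of the group's range (Dixon's criterion). There were 12 such values. Chance gives about 1 in 20 groups for groups not chosen on their values, and since some members were named for a small p or a wide spread, that rate cannot be read against the 12. Of the 12 values, 4 lay in low replicate 2. In that library the PQ-loop member SLC66A2 had 102.12 RPKM where the other low libraries had 17.8 to 30.6, and the glutamate carrier SLC1A2 had 27.01 where the others had 2.78 to 9.42. The thiamine carrier SLC19A2 had 4.24 RPKM there, and SLC18B1 had 2.17 as the lowest of its group. The citrate importer SLC13A5 had 69.81 RPKM in low replicate 5, against 39.4 to 42.8 in the other low libraries. In low replicate 1, SLC51B had 2.81 RPKM, the highest of its group, and SLC38A9 had 2.23, the lowest.

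Among the high libraries the proline carrier SLC6A20 had 11.56 RPKM in replicate 1, against 4.84 to 6.77 in the others. SLC41A3 had 1.84 RPKM in replicate 2 and SLC1A5 had 6.86 in replicate 3. In replicate 5, SLC25A16 had 11.24 RPKM as the highest value and the creatine carrier SLC6A8 had 4.34 as the lowest.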

How the results depend on the processing

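Over 18 alternatives no member reached an adjusted p under 0.05 in limma, and the smallest adjusted p among 74 named members was 0.399. With no minimum, 273 solute carrier genes were tested, 15 (5.49%) had an unadjusted p under 0.05, beside 4.86% of all 18768 genes, and 148 (54.2%) the higher mean in high, beside 46.3%. With a mean of at least 5 RPKM, 85 were tested and 50 (58.8%) had the higher mean in high, beside 50.1% of all tested genes. Scaling by median ratios gave 3 genes (2.07%) whose groups did not overlap, beside 1.08%. Without both high replicates 1 and 5, 3 members (2.07%) had an unadjusted p under 0.05, beside 1.82% of all tested genes. Leaving out 1 library at a time, the number at an unadjusted p under 0.05 ran from 6 (4.14% without high replicate 1, beside 2.56% of all tested genes) to 17 (11.7% without low replicate 2, beside 7.49%). The number whose groups did not overlap ran from 1 to 5 (3.45% without low replicate 5, beside 1.97%), and the number with the higher mean in high from 70 (48.3% without low replicate 5, beside 39.7%) to 93 (64.1% without high replicate 1, beside 48.5%), while the number at an adjusted p under 0.05 stayed 0. The cause was not tested. Of the 9 members at an unadjusted p under 0.05, SLC50A1 and SLC39A8 stayed under it in all 18 alternatives, and all 9 kept their sign. Of the 74 named members 36 changed sign under at least 1 alternative. No paired analysis was possible because the labels name no pairs between the groups. The replicate numbers used here follow the order of the libraries within each group and mark no pairs. The sequencing depth is unknown, so no counting error can be given.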
